A study of Rattus norvegicus with 6 samples.

Results

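The genes described here encode proteins that build and anchor excitatory and inhibitory synapses: the scaffolds of the postsynaptic density, the kinase CaMKII, and adhesion molecules that span the synaptic cleft. They were taken from a list of 40 gene symbols, and 37 of them were each named alone by at least 1 probe set. All 37 lay above the filter on dim probe sets, which kept the brightest 60%, above an intensity of 94.4, and were tested among 9652 genes in all. No probe set named Lrrtm1, Cadm2 or Ptprd alone, so these 3 genes were not analysed here. Each gene was represented by its probe set of highest mean over all arrays, a choice that arose for Nrxn2 only, since the other 36 genes had a lone probe set each.

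The neurons came from the cortex of Sprague-Dawley rat embryos on embryonic day 18 and were kept in NB-N2 medium for 3 days before the experiment. Total RNA was measured as biotin-labelled cRNA on Affymetrix arrays, 3 arrays of neurons given 10 nM of the complement protein C1q for 3 h and 3 arrays of untreated neurons. All of them are primary cultures of immature neurons, and the labels name no genotype, sex or vehicle control. Values are intensities as deposited, in arbitrary units, and fold changes are taken on log2(intensity + 16). The labels number the arrays 1 to 3 in each group without saying whether a number is a separate culture or embryo.

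In the postsynaptic density, membrane-associated guanylate kinases such as PSD-95 hold receptors through their PDZ domains, DLGAP proteins link them to SHANK, and SHANK reaches HOMER and the actin cytoskeleton. Presynaptic neurexins and LAR-type receptor phosphatases bind postsynaptic partners across the cleft: neuroligins and LRRTMs for neurexins, and SLITRKs, LRFN proteins and IL1RAPL1 for the phosphatases. In cortical neurons much of this machinery is assembled during the weeks in which synapses form.

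The arrays resembled each other closely. Log2 values correlated at 0.991 to 0.996 between arrays over all probe sets, and array medians ran from 147 to 155. The labelled cell type was visible in the data. All 5 pan-neuronal markers were above the filter, among them Tubb3, a neuronal tubulin, at 7952 ± 245 in C1q-treated and 8078 ± 408 in untreated neurons (SD, n = 3 each). All 5 measured markers of excitatory cortical neurons and all 8 of inhibitory neurons also passed the filter. So did 8 of 9 astrocyte, 6 of 7 radial glia, 5 of 6 oligodendrocyte lineage, 4 of 7 mural and meningeal, 2 of 8 microglia and 2 of 6 endothelial markers. The astrocyte filament gene Gfap was below it at 47.6 ± 4.56 and 51.7 ± 3.49 (SD, n = 3 each) in C1q-treated and untreated neurons. Some other non-neuronal markers were far brighter, while others were as dim, such as Pecam1 at 46.3 and Itgam at 32.6 untreated. Untreated means ran from 101 to 1606 for the tested astrocyte markers and from 367 to 3010 for those of radial glia. For the tested mural and meningeal markers they ran from 139 to 6837, where Acta2 was highest and Col1a2 next at 218. They ran from 130 to 268 for the tested oligodendrocyte lineage markers, 103 to 117 for microglia and 121 to 126 for endothelial markers. Both measured blood genes passed the filter too. Fewer cells of a type and less RNA per cell cannot be told apart in such values.

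After 3 h of C1q no scaffold or adhesion gene passed the test. The limma test called 0 of 37 at an adjusted p under 0.05 (Benjamini-Hochberg, over all probe sets tested), where the share called over all 17529 probe sets was 0.00%. At an unadjusted p under 0.05 there was 1 gene of 37, Lin7a, beside 0.684% of all genes tested. The smallest adjusted p in limma was 0.9999 for these genes. Fold changes ran from 0.934 for Homer2 to 1.15 for Lin7a. For 35 of the 37 genes the log2 fold change was within 0.1 of 0 in either direction, a range that held 90.5% of all genes tested. For 34 genes, all but Lin7a, Camk2d and Lrfn2, both ends of the 95% interval were less than 1.2-fold from no change, and for all 37 they were less than 1.5-fold from it. Over all genes tested these shares were 79.6% and 99.8%. Since the background share of each intensity is unknown, the intervals bound changes of the signal and not of the mRNA.

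On the log2 scale the mean was higher after C1q for 23 genes and lower for 14, with a median log2 fold change of 0.01. The counts of higher and lower means below are on that scale, where genes that were nearly level, such as Nlgn2 and Lin7b, can differ in sign from their means of intensity. Over all genes tested the mean was higher for 37.0%, and the median was -0.02. This balance moved with scaling and with single arrays. Quantile normalization gave 30 higher and 7 lower, and median centring gave 33 and 4. The higher share over all genes tested was then 53.2% and 59.0%. Without untreated array 1 it was 33 to 4, without untreated array 2 it was 12 to 25, and without C1q array 2 it was 15 to 22. In these fits the higher share over all genes tested was 55.3%, 27.9% and 30.6%, in that order. Leaving out some array turned the sign for 30 of the 37 genes, so the balance, here and in each family, is given as a description only.

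**Figure D1:**
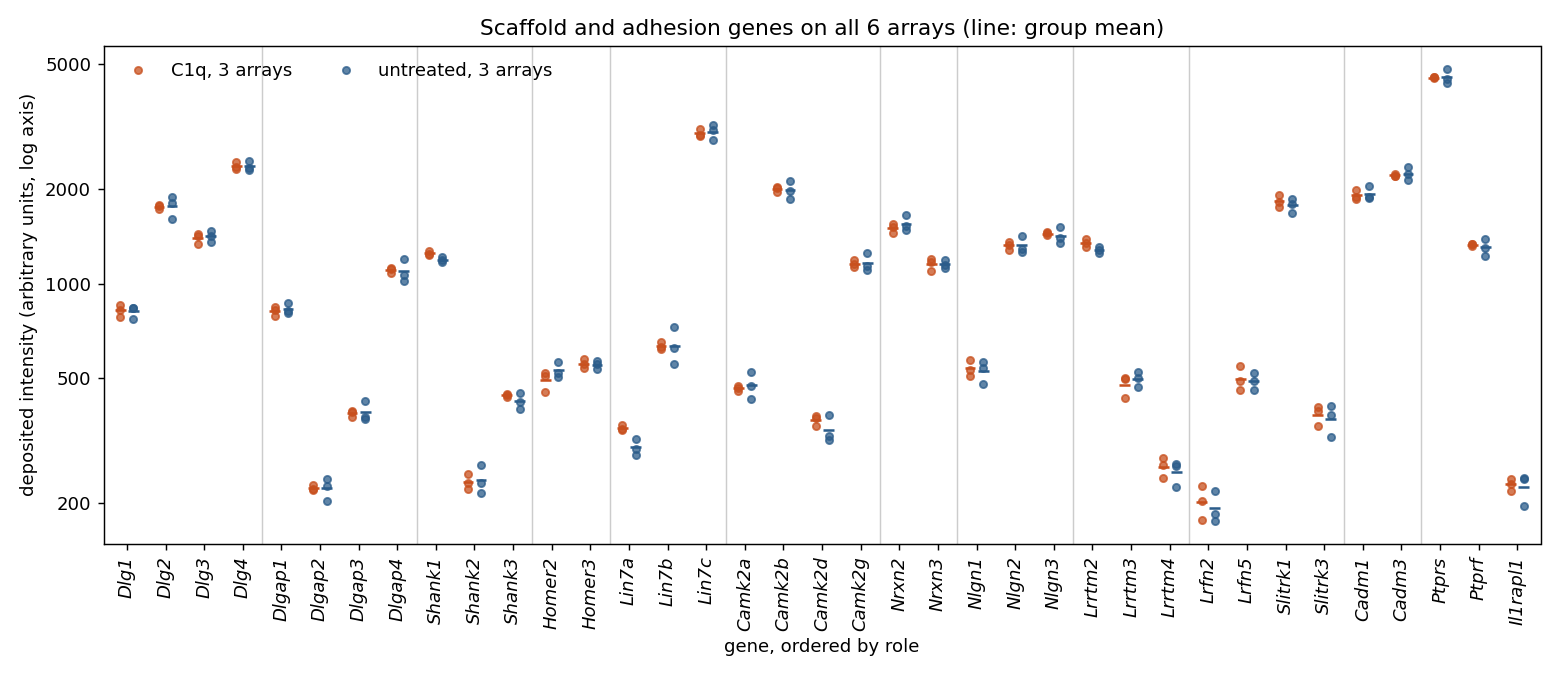
Deposited intensity on a log axis for 37 genes ordered by role, with orange points for the 3 C1q arrays, blue points for the 3 untreated arrays and lines for the group means. The pairs of clouds sit at nearly the same height for every gene, and Lin7a, Shank1 and Lrrtm2 are the genes whose clouds do not overlap. Heights of different genes come from different probe sets and are not comparable.

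**Figure D2:**
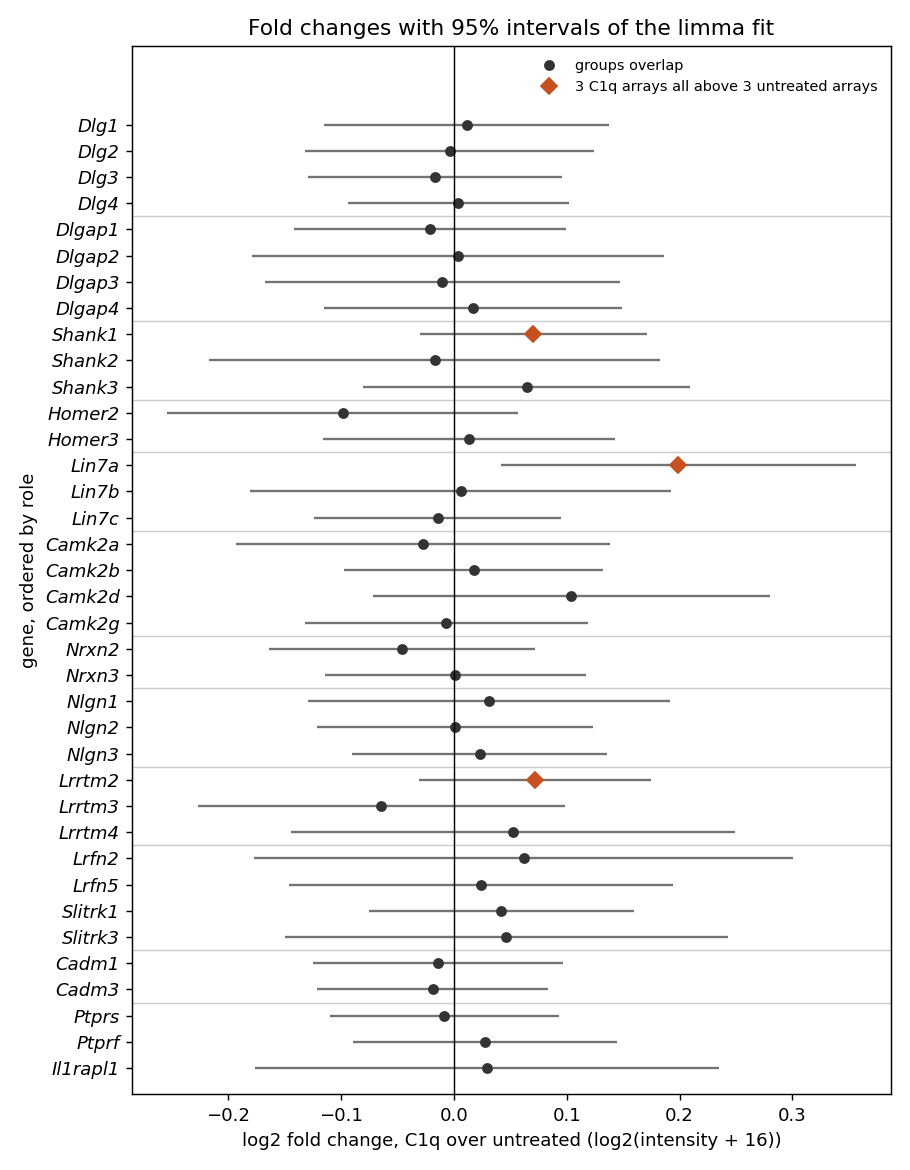
Log2 fold change of C1q-treated over untreated neurons for each gene, with the 95% interval of the limma fit. Diamonds mark the 3 genes whose C1q arrays all lie above the untreated arrays, and the interval of Lin7a alone clears 0, before any adjustment.

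The guanylate kinase scaffolds Dlg1, Dlg2, Dlg3 and Dlg4 were almost level between the groups, with fold changes of 0.989 to 1.01. Dlg4, which encodes PSD-95, the main scaffold of the excitatory postsynaptic density, had 2359, 2439.7 and 2327 on the C1q arrays against 2459, 2342 and 2305 on the untreated arrays. The C1q values lay inside the untreated range, and the fold change had bounds of 0.937 and 1.07 at 95% confidence. Dlg3, which encodes SAP102, the family member associated with young synapses, had 1440.2, 1414 and 1341 on the C1q arrays against 1475, 1355 and 1415 on the untreated arrays. Its groups overlapped, with the lowest value on C1q array 3. Dlg1 averaged 821 ± 37.0 after C1q and 814 ± 35.7 untreated, and Dlg2 averaged 1758 ± 25.5 after C1q and 1766 ± 144 untreated (SD, n = 3 each). In this family 2 means were higher and 2 lower. After quantile normalization there were 3 higher and 1 lower, and after median centring all 4 were higher.

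The DLGAP genes, whose proteins bind the guanylate kinase domain of the DLG scaffolds, had fold changes of 0.985 to 1.01. Dlgap1 read 820.4, 842 and 785 on the C1q arrays and 865, 815 and 804 on the untreated arrays. Dlgap4 read 1083, 1109 and 1124 on the C1q arrays and 1193, 1068 and 1022 on the untreated arrays. For Dlgap4 the untreated arrays enclosed the C1q arrays on both sides, with untreated array 1 highest. Dlgap2 averaged 222 ± 4.13 after C1q and 222 ± 17.4 untreated, and Dlgap3 averaged 385 ± 8.69 and 389 ± 29.9 (SD, n = 3 each). Here too 2 means were higher and 2 lower, and after median centring all 4 were higher.

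Among the SHANK genes, which encode the deep layer of the postsynaptic density, Shank1 was separated between the groups. Its intensity was 1274, 1238 and 1241 on the C1q arrays against 1211, 1191 and 1169.8 on the untreated arrays. The lowest C1q value stood 26.3 units above the highest untreated value, higher in 3 of 3 arrays. The fold change, 1.05, had a 95% interval of 0.979 to 1.13, at an unadjusted p of 0.154 and an adjusted p of 0.9999 in limma. Shank3 averaged 441 ± 4.81 after C1q and 421 ± 25.8 untreated (SD, n = 3 each), with a fold change of 1.05, but untreated array 1 at 448 exceeded all C1q arrays. Shank2 averaged 233 ± 12.9 after C1q and 237 ± 25.1 untreated (SD, n = 3 each), and its sign turned positive with quantile normalization and median centring.

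HOMER proteins couple SHANK to metabotropic glutamate receptors and to calcium stores. Homer2 had the lowest fold change of all 37 genes, 0.934 (95% interval 0.838 to 1.04). It read 508, 518 and 452 on the C1q arrays against 561, 519.8 and 505 on the untreated arrays. The groups overlapped: C1q arrays 1 and 2 lay within the untreated range and C1q array 3 below it. Homer3 read 538, 575 and 552 on the C1q arrays against 553, 565 and 532 on the untreated arrays, a fold change of 1.01.

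LIN7 proteins are small PDZ scaffolds that join CASK in complexes on both sides of the synapse. Lin7a had the highest fold change and the smallest p of the 37 genes. Its intensity was 344, 355 and 340.5 on the C1q arrays against 319, 284 and 297 on the untreated arrays. All C1q arrays lay above all untreated arrays, with a gap of 21.1 units between the nearest values. The means were 346 ± 7.40 and 300.1 ± 17.9 (SD, n = 3 each) in C1q-treated and untreated neurons, a fold change of 1.15 (95% interval 1.03 to 1.28). The unadjusted p in limma was 0.0177 and the adjusted p 0.9999, so Lin7a did not pass. It passed in 1 of the alternative fits, that with array weights, at an adjusted p of 0.0463. That fit called 447 of 17529 probe sets, beside 1 of the 37 genes. In that fit untreated array 3 carried a weight of 5.51 and untreated arrays 1 and 2 weights of 0.362 and 0.335. Leaving out each array in turn gave log2 fold changes of 0.16 to 0.24. Without C1q array 2, untreated array 2 or untreated array 3, the unadjusted p of Lin7a in limma was no longer under 0.05.

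The paralogues of Lin7a did not show that separation. Lin7c read 2948, 3120.3 and 2986 on the C1q arrays against 3092, 2863 and 3199.7 on the untreated arrays, a fold change of 0.990 (95% interval 0.918 to 1.07). Lin7b read 629, 617 and 652 on the C1q arrays against 552, 727 and 623 on the untreated arrays. Lin7b was the most variable scaffold gene across arrays, with a highest value 1.32 times the lowest, both on untreated arrays. The difference between Lin7a and its paralogues was not tested.

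**Figure D3:**
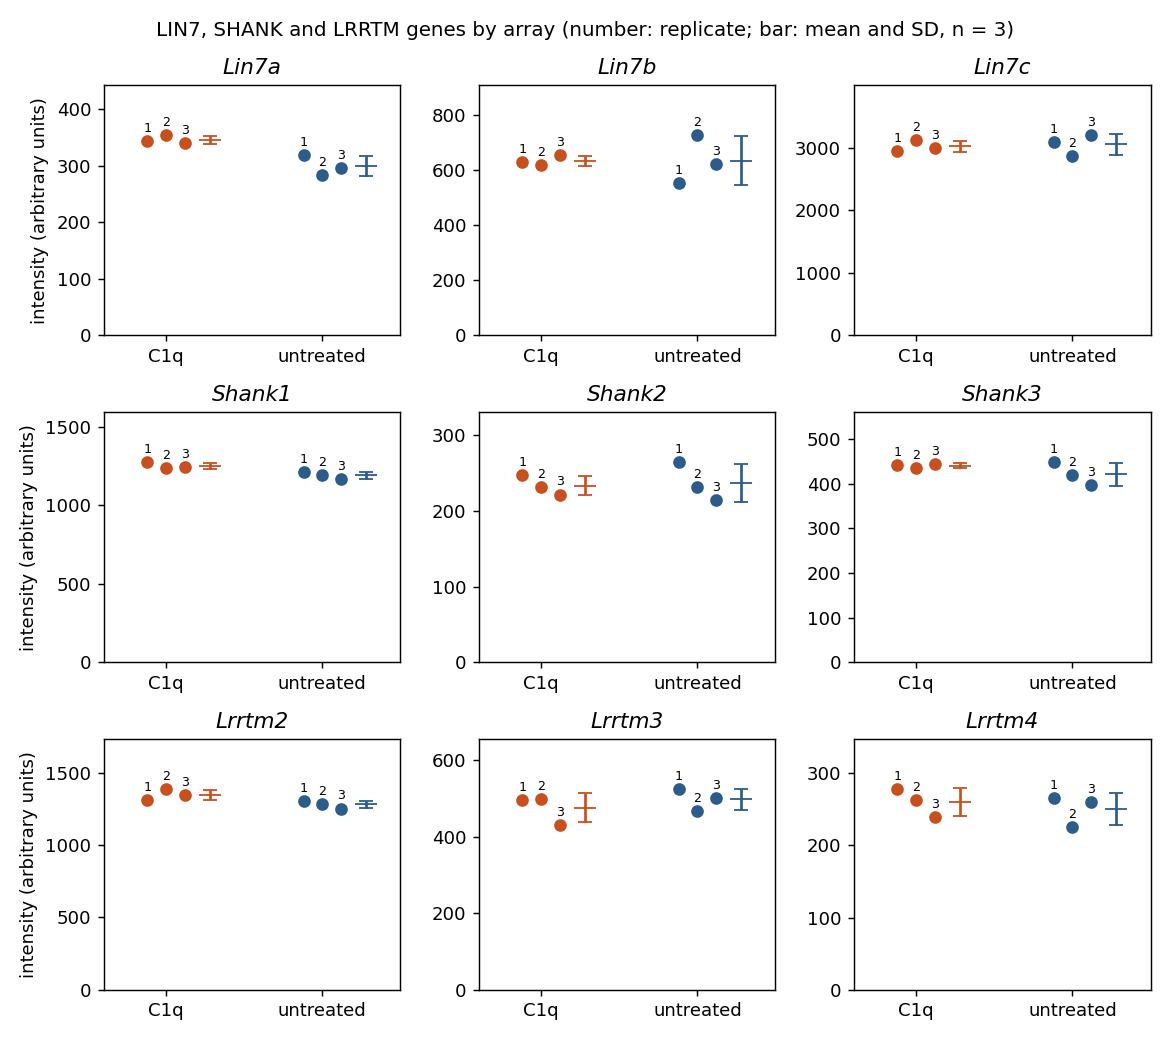
Intensity of LIN7, SHANK and LRRTM genes on a linear axis from 0, with numbered points for each array and bars for mean and SD of 3 arrays, C1q left and untreated right. In each family the first panel shows a gene without overlap between groups, and the other panels show paralogues whose groups overlap.

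The 4 CaMKII subunit genes encode the calcium-dependent kinase that is abundant in spines. Camk2b, the beta subunit gene, read 2032, 2019 and 1964 on the C1q arrays against 2119, 1969 and 1862 on the untreated arrays. All C1q values fell within the untreated range, and the fold change was 1.01 (95% interval 0.935 to 1.10). Camk2d, the delta subunit gene, had 350.0, 379 and 373 on the C1q arrays against 379.8, 318 and 327 on the untreated arrays. Untreated array 1 lay just above the brightest C1q array and the other untreated arrays below all C1q arrays, at a fold change of 1.07 (95% interval 0.951 to 1.21). Camk2a, the alpha subunit gene of mature forebrain synapses, averaged 463 ± 8.55 after C1q and 473 ± 47.8 untreated (SD, n = 3 each), with untreated arrays between 427 and 522. Camk2g averaged 1158 ± 32.3 after C1q and 1165 ± 79.5 untreated (SD, n = 3 each).

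Of the presynaptic neurexins, Nrxn2 read 1546, 1516 and 1449.9 on the C1q arrays against 1658, 1480.3 and 1523 on the untreated arrays. The groups overlapped at a fold change of 0.969. The other probe set of Nrxn2 gave 0.964. Its highest value, 686, was on untreated array 2, where the first had its lowest untreated value. Nrxn3 averaged 1155 ± 54.4 after C1q and 1153 ± 35.5 untreated (SD, n = 3 each).

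The neuroligins, postsynaptic partners of the neurexins, had fold changes of 1.00 to 1.02, with 3 of 3 means higher as deposited and with either rescaling. Without untreated array 2 all 3 were lower, and without C1q array 2 there were 1 higher and 2 lower. Nlgn3, found at excitatory and inhibitory synapses, read 1424, 1445 and 1456 on the C1q arrays against 1511, 1351 and 1399 on the untreated arrays. Its C1q values lay between untreated arrays 3 and 1. Nlgn2, the neuroligin of inhibitory synapses, averaged 1323 ± 40.7 after C1q and 1324 ± 85.8 untreated, and Nlgn1, that of excitatory synapses, averaged 536 ± 31.6 and 525 ± 41.8 (SD, n = 3 each).

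LRRTM proteins are leucine-rich repeat adhesion molecules of the postsynaptic membrane. Lrrtm2, whose protein binds neurexins, read 1312, 1385 and 1343 on the C1q arrays against 1307, 1281 and 1252 on the untreated arrays. The groups did not overlap, by a margin of 4.68 units between C1q array 1 and untreated array 1. The fold change, 1.05, had a 95% interval of 0.979 to 1.13, at an unadjusted p of 0.154 and an adjusted p of 0.9999 in limma. Lrrtm3 averaged 476 ± 38.3 after C1q and 497 ± 28.3 untreated, and Lrrtm4 averaged 260.4 ± 19.3 and 251 ± 22.4 (SD, n = 3 each), each with overlapping groups.

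Lin7a, Shank1 and Lrrtm2 were the 3 genes of 37 whose groups did not overlap, or 8.11%, and in all 3 the C1q arrays were the higher. Over all genes tested 4.96% did not overlap, and for 1.23% the C1q arrays were the higher. With 3 genes this comparison has little precision, and no test was made of it. Overlap was judged on values as deposited only, and the share of higher means over all genes tested moved with scaling.

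The other postsynaptic leucine-rich repeat genes, Lrfn2, Lrfn5, Slitrk1 and Slitrk3, all had higher means after C1q, as deposited and with either rescaling, at fold changes of 1.02 to 1.04. Without untreated array 2 there were 2 higher and 2 lower of these 4 genes, and without C1q array 1 or 2 there were 3 higher and 1 lower. Slitrk1, whose protein binds presynaptic LAR-type phosphatases, read 1756, 1919 and 1819 on the C1q arrays against 1867, 1677 and 1792 on the untreated arrays. The groups overlapped widely, and without untreated array 2 the log2 fold change was 0.0009. Lrfn2 averaged 201 ± 24.8 after C1q and 192 ± 22.5 untreated, Lrfn5 497 ± 46.1 and 488 ± 31.3, and Slitrk3 382 ± 27.9 and 370.2 ± 41.6 (SD, n = 3 each). In each of these 4 genes the difference of means was smaller than the SD of either group.

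CADM proteins are immunoglobulin adhesion molecules that join cell to cell on both sides of the synapse. Cadm3 read 2229.5, 2198 and 2210.2 on the C1q arrays against 2352, 2239 and 2138 on the untreated arrays. Its C1q arrays were tightly grouped within the wider untreated range, at a fold change of 0.987 that turned positive with median centring. Cadm1 averaged 1914 ± 67.5 after C1q and 1934 ± 96.7 untreated (SD, n = 3 each).

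Ptprs and Ptprf encode LAR-type receptor phosphatases of the presynaptic membrane. Ptprs read 4522, 4548 and 4543 on the C1q arrays against 4852, 4501 and 4354 on the untreated arrays. The 3 C1q values were nearly identical and fell within the untreated range, with a fold change of 0.994 that turned positive with either rescaling. Ptprf read 1333, 1335 and 1317 on the C1q arrays against 1390.2, 1227 and 1296 on the untreated arrays, also inside the untreated range. Il1rapl1, a postsynaptic partner of such phosphatases, averaged 228 ± 10.4 after C1q and 224 ± 25.4 untreated (SD, n = 3 each).

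The untreated arrays differed among themselves more than the C1q arrays did. The SD of the log2 values was larger among untreated than among C1q arrays for 29 of 37 genes, or 78.4%, and for 71.0% of all genes tested. The median coefficient of variation was 3.08% over C1q arrays and 6.13% over untreated arrays for the 37 genes, beside 4.01% and 5.80% for all genes tested. The ratio of the highest to the lowest of a gene's 6 values ran from 1.07 for Dlg4 to 1.32 for Lin7b, with a median of 1.14, against 1.15 over all genes tested.

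The spread had a shared direction. Untreated array 1 held the highest of the 6 values for 23 genes, or 62.2%, beside 46.8% of all genes tested. The lowest value was on untreated array 3 for 15 genes, or 40.5%, and on untreated array 2 for 13, or 35.1%. Over all genes tested those shares were 14.4% and 33.5%. Untreated array 3 was the lowest untreated array for 12 of 20 scaffold and kinase genes, beside 27.6% of all genes tested, and among them were Dlg4, Shank1, Camk2a and Camk2b. Untreated array 2 was the lowest untreated array for 11 of 17 adhesion genes, or 64.7%, a share near the 58.0% of all genes tested. After quantile normalization untreated array 1 was highest for 10 genes, or 27.0%, against 21.4% of all genes tested. Untreated array 3 was then lowest for 16, or 43.2%, against 20.0% of all genes tested. Whether this spread comes from the cultures or from the arrays was not tested.

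**Figure D4:**
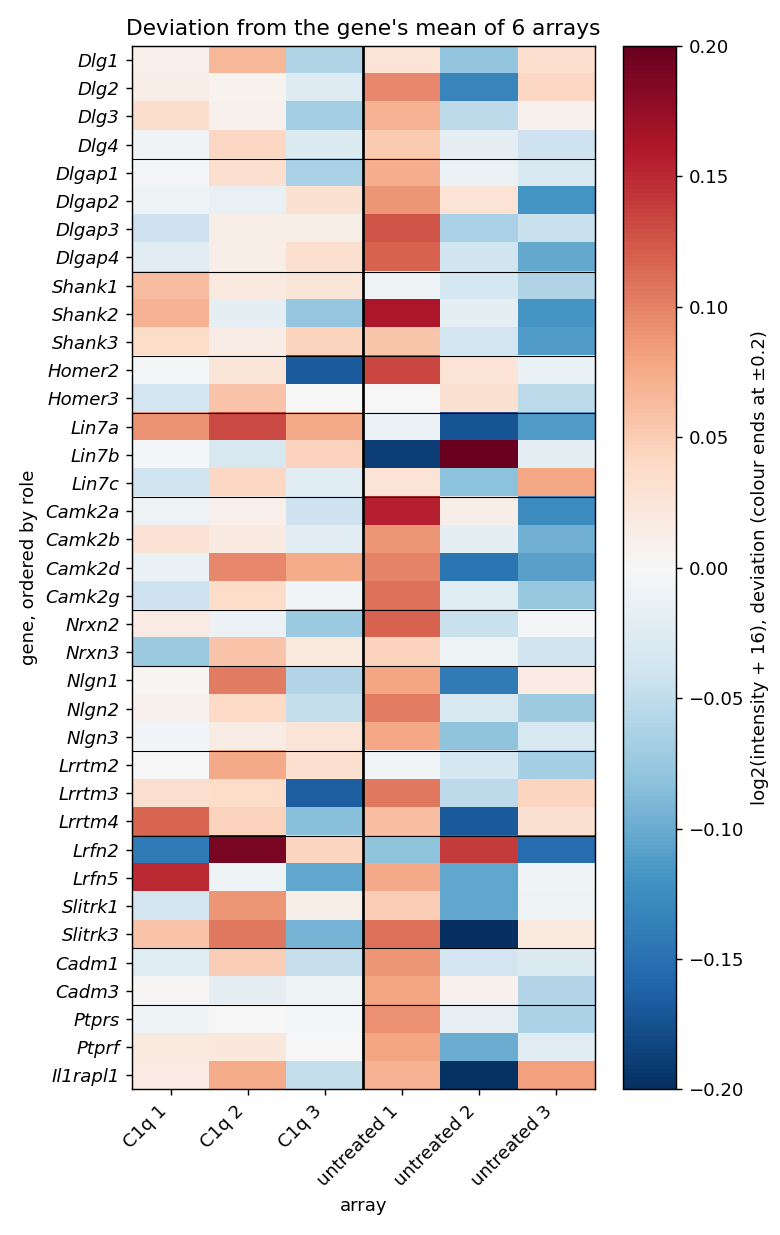
Deviation of each gene's log2(intensity + 16) from its mean over 6 arrays, with red above and blue below the mean, genes in rows by role and arrays in columns, C1q left of the black line. The column of untreated array 1 is mostly red and those of untreated arrays 2 and 3 mostly blue, while the C1q columns are paler.

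**Figure D5:**
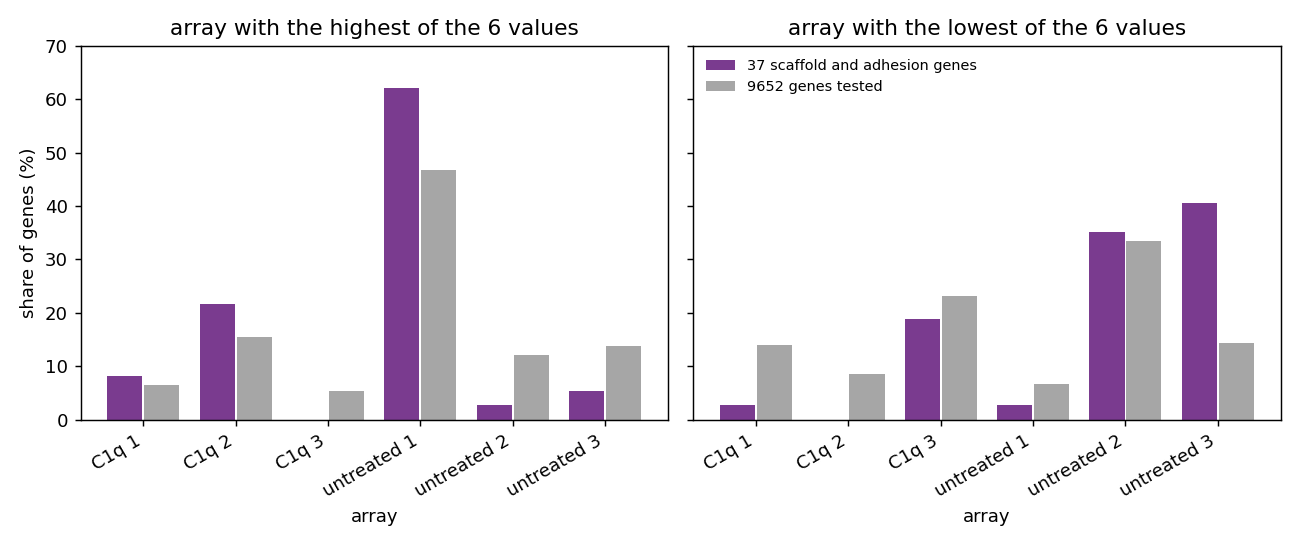
Share of genes, in percent, for which each array held the highest value (left) and the lowest value (right) of the 6, in purple for the 37 scaffold and adhesion genes and in grey for all 9652 genes tested. Untreated array 1 leads on the left at 62.2% and 46.8%, and untreated array 3 differs between the sets on the right at 40.5% and 14.4%.

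Other genes of the same structures were taken from 2 further lists. Of 24 tested genes for other postsynaptic scaffolds and their partners limma called 0, with 7 means higher and 17 lower and a median log2 fold change of -0.01. Homer1, the remaining HOMER gene, had a fold change of 0.954 and Baiap2, an actin regulator that binds SHANK, 0.947. Of 24 tested genes for other synaptic adhesion molecules limma called 0 as well, with 14 means higher and 10 lower and a median of 0.01. The higher shares of the scaffold and adhesion lists were 29.2% and 58.3%. Over all genes tested the higher share was 37.0% and the median -0.02. These list counts are for values as deposited and were not repeated after rescaling. Lrfn1 had a fold change of 1.05 and Slitrk2 of 0.932. In neither list did the groups of a tested gene separate. Among the tested cell type markers they did so for Npy, 1 of 8 inhibitory neuron markers, and for Hbb, 1 of 2 blood markers. In no other marker list did a tested gene separate. Over all genes tested 4.96% did not overlap. Npy was at 1675 ± 36.4 in C1q-treated and 1800 ± 74.0 in untreated neurons (SD, n = 3 each). Hbb was at 1155 ± 67.3 and 970 ± 83.2 (SD, n = 3 each). Its fold change of 1.19 was above that of any of the 37 genes, at an unadjusted p of 0.00334 in limma. Neither Npy nor Hbb passed in limma after adjustment, and their part in the results above was not tested.

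Promoter windows of 300 bases, from 250 before to 50 after the transcript start in RefSeq on GRCr8, were held for 29 of the 37 genes, in 30 windows, since Dlgap1 had 2. They had a median GC content of 59.3% and a median of 10 CpG, against 51.7% and 7 over 33469 windows of all genes. The cAMP response element TGACGTCA, the palindrome bound by the activity-regulated factor CREB, was found in 2 of the 30 windows, those of Lrrtm2 and Ptprs, or 6.67%, against 1.83% of all windows. Its core TGACG, on either strand and part of the longer motif, was found in 5 windows, or 16.7%, against 21.2%. The AP-1 motif TGANTCA was in 4 windows, or 13.3%, against 7.33%. The GC box GGGCGG was in 11 windows, or 36.7%, against 33.1%, the CCAAT box in 9 of 30 against 37.5% of all windows, and the TATA box TATAAA in 2, or 6.67%, against 14.2%. All motifs were searched on both strands. A match is a description of the letters and not of a binding site. The groups were separate for Lrrtm2 and overlapped for Ptprs.

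Windows are printed for Lin7a, the gene of smallest p, and for Lrrtm2 and Ptprs, the genes with the full element, 5′ to 3′ on the gene's strand with TGACG and its reverse complement in capitals. The full element began 74 bases before the start in Lrrtm2 and 47 bases before it in Ptprs, and Lrrtm2 had a further core 84 bases before the start. The window of Lin7a held only the core, on the opposite strand from base 33 of the transcript.
Lin7a, chr7:44473318-44473617, plus strand: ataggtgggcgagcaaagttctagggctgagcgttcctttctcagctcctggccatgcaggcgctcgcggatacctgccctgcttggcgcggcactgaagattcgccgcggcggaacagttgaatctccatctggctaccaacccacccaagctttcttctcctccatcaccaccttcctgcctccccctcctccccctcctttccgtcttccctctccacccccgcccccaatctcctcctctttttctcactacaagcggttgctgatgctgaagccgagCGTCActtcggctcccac
Lrrtm2, chr18:27096918-27097217, minus strand: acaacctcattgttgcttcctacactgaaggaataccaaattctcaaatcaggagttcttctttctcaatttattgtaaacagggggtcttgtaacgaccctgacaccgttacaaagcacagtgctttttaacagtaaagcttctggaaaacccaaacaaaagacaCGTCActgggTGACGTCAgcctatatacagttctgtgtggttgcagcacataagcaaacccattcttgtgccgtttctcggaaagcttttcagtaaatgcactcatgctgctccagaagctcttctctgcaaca
Ptprs, chr9:1394042-1394341, minus strand: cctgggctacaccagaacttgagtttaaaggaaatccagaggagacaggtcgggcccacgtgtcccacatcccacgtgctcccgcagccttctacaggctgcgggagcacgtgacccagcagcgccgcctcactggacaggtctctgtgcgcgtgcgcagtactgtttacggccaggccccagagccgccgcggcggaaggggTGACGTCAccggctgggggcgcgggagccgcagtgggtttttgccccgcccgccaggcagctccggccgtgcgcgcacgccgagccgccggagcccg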

How the data were processed

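Transcript levels were measured on 6 one-colour Affymetrix arrays, 3 of C1q-treated and 3 of untreated neurons, from biotin-labelled cRNA per the labels' protocols. The deposited table holds 1 linear intensity for each of 29215 probe sets and array. How the authors summarised and normalized these values is not given in the sources used here. Sequencing depth does not apply to arrays, and the table holds no detection calls. The number of arrays limits the precision.

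Exactly 1 gene was named for 15310 probe sets in the platform annotation, 15279 of which matched a RefSeq table of GRCr8 by gene ID. Values were analysed as log2(intensity + 16), without rescaling since array medians differed by 0.070, under a limit of 0.1. The pseudocount shrinks fold changes of dim genes. The brightest 60% of probe sets, 17529 above an intensity of 94.4, entered limma 3.58.1 (R 4.3.3; lmFit, then eBayes with trend), with Benjamini-Hochberg adjustment over all of them, calls at an adjusted p under 0.05 and 95% intervals from the fit. The p-values rest on the spread among 3 arrays a group, which may be technical only. The procedure was tested on the deposited values after known changes were added on the C1q arrays to probe sets drawn at random. How small a change it recovers is not given here.

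Values on every array are given for members without overlap between groups or with an unadjusted p under 0.05, and in each role for the member of smallest p and that of the brightest probe set. From each further list of scaffold or adhesion genes the 2 genes of smallest p are named. The other members are given by mean. The array values of Lin7b and Shank3, and the markers Npy and Hbb, were chosen after their values were seen. The markers Tubb3 and Gfap were not chosen by p either. The members and lists were chosen with earlier results of these data known. Alternatives covered scaling, filter, pseudocount, variance trend, array weights, replicate block, each array left out and averaging probe sets within genes.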

Additional observations from a re-analysis of the deposited data

How the results depend on the processing

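The count of scaffold and adhesion genes called was 0 under every alternative but array weights, which called 1, Lin7a. With array weights 447 of 17529 probe sets were called. Over all probe sets limma called 0 after either rescaling, with another pseudocount (1 or 64), without the trend and among the brightest 40%. It called 130 higher and 317 lower with array weights, 1 lower without a filter, and 0 to 28 higher and 0 to 10 lower when each array was left out, all of them without untreated array 2. With the replicate block it called 9 higher and 0 lower and none of the 37 genes. Deviations of same-numbered arrays from their group means correlated at 0.01, -0.45 and -0.13, and 1 of 6 arrays correlated best with its own number. Shifts of whole arrays enter these deviations, so the correlations cannot decide whether a number marks a shared culture. The number of higher means ran from 12 to 33 as each array was left out, with the lowest without untreated array 2 and 15 without C1q array 2.

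Lin7a, Shank1, Shank3, Lrrtm2, Homer2, Camk2d and Slitrk1 kept their sign under all alternatives, and the other 30 of the 37 genes turned under at least 1. The sign turned for 7 genes after quantile normalization, 10 after median centring, 11 with array weights and 5 to 12 as each array was left out. Values follow for the 18 genes given on every array by rule. Among these, log2 fold changes of opposite sign were 0.00532 for Lin7c and 0.00197 for Ptprs after quantile normalization, and 0.0101 for Dlg3, 0.00517 for Dlgap1, 0.0122 for Lin7c, 0.00795 for Cadm3 and 0.0184 for Ptprs after median centring. With array weights they were 0.0134 for Dlgap1, 0.0400 for Cadm3 and 0.0465 for Ptprs. As each array was left out, log2 fold changes crossed 0 for 12 of these 18. They ran from -0.0525 to 0.0157 for Cadm3, from -0.0267 to 0.0657 for Camk2b, from -0.0473 to 0.0137 for Dlg3, from -0.0153 to 0.0312 for Dlg4, from -0.0441 to 0.00976 for Dlgap1 and from -0.0303 to 0.0800 for Dlgap4. The ranges were -0.0121 to 0.0356 for Homer3, -0.0595 to 0.0203 for Lin7c, -0.0119 to 0.0676 for Nlgn3, -0.0794 to 0.00160 for Nrxn2, -0.0153 to 0.0739 for Ptprf and -0.0422 to 0.0355 for Ptprs. The cause of these turns was not tested. Signal over background is unknown and limits what the dimmer genes can show.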
